A study of Homo sapiens with 6 samples.

Results

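The claudin genes CLDN1, CLDN3, CLDN4, CLDN7, CLDN11, CLDN12, CLDN15 and CLDN23 were followed in MDA-MB-231 cells, a human breast cancer cell line, after transfection with miRNA precursors. Members were found as every probe of the array whose target is a RefSeq transcript of one of these 8 genes. This gave 8 of the 21743 genes and 10 of the 50599 probes on the array, since CLDN7 and CLDN12 had 2 probes each and the other genes 1 each. The groups were cells transfected with an hsa-miR-205-5p precursor, cells transfected with an hsa-miR-214-3p precursor, and cells given a scrambled precursor as negative control. Each group had 2 arrays, and the series gives 72 h after transfection for all of them. All 6 samples were the same cell line under reverse transfection, so the control cells had also been transfected. Nothing in the labels says whether the 2 arrays of a group came from separate cultures, so the p-values below measure the spread between these samples, which may be technical. Both precursor groups were compared with the same 2 control arrays.

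Claudins are membrane proteins that span the membrane several times and join neighbouring epithelial cells at the tight junction, where some seal the space between cells and others form ion pores. CLDN1, CLDN3, CLDN4 and CLDN7 are typical of epithelial cells, and CLDN3, CLDN4 and CLDN7 define, by being low, the claudin-low class of breast cancers, to which MDA-MB-231 is usually assigned. CLDN15 forms cation pores in intestinal epithelium, CLDN12 has been linked to calcium transport, and CLDN11 is known from myelin and the testis. A miRNA guides a silencing complex to mRNAs that pair with its seed, bases 2 to 8 of the mature strand. The mature strands of both miRNAs are shown because they are the agents compared, with the seed in capitals, from RefSeq on GRCh38.p14. The hsa-miR-205-5p strand lies at chr1:209432166-209432187 on the plus strand and that of hsa-miR-214-3p at chr1:172138816-172138837 on the minus strand.
hsa-miR-205-5p: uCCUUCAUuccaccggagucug
hsa-miR-214-3p: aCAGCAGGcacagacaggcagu
Each strand is 22 bases long, and the seeds CCUUCAU and CAGCAGG differ.

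On the 6 arrays, 35.4 to 42.2% of 58717 spots that are not controls were well above background, the scanner software's own test of a spot against its surroundings, and no spot was saturated. All arrays lay on 1 slide, and each group occupied 2 neighbouring positions of its own, so position on the slide and group cannot be told apart. Values below are the log2 of the processed signal minus the 75th percentile of the array, called the normalized log2 signal, and levels are compared between groups within a probe only. Marker sums add the linear signals of different probes and describe array signal, not relative transcript levels. To be tested, a probe had to be well above background in at least 1 group on both of its arrays, and 18464 probes met this. A probe is called when limma gave an adjusted p under 0.05 and the change was at least 2-fold. All 5 mesenchymal markers of the line (VIM, ZEB1, CD44, AXL and MSN) were well above background on every array and none was called in the 3 comparisons, and their summed scaled signal ranged from 919 to 925 with hsa-miR-205-5p, 846 to 886 with hsa-miR-214-3p and 799 to 892 in control cells. Of 8 luminal markers, ESR1, FOXA1 and PGR were not well above background on any array. CDH1, EPCAM and KRT19 were called higher and TFF1 lower with hsa-miR-205-5p against control, GATA3 was not called, and none of the 5 tested was called with hsa-miR-214-3p against control. The luminal sum, over 1 probe per gene, was 1514 to 1750 with hsa-miR-205-5p, 725 to 787 with hsa-miR-214-3p and 692 to 888 in control cells, but KRT19 alone made up 98.1 to 98.5%, 92 to 92.2% and 88.5 to 91.9% of the summed signal, so the sum follows that gene. The leukocyte gene CD3E was not well above background on any array, and CD14 was higher with hsa-miR-205-5p than in control cells (log2 fold change 1.14, SE 0.22, limma adjusted p = 0.02433).

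A level could be measured for 6 of the 8 claudin genes. Of the 10 member probes, 8 passed the filter, covering CLDN3, CLDN4, CLDN7, CLDN12, CLDN15 and CLDN23. CLDN3, CLDN4, CLDN23, both CLDN7 probes and the brighter CLDN12 probe were well above background on all 6 arrays. The CLDN15 probe was well above background on 5 of 6 arrays, all but hsa-miR-205-5p replicate 2. The dimmer CLDN12 probe was well above background on the 2 control arrays and on no other. The probe of CLDN1, a sealing claudin of epidermis and other epithelia, was not well above background on any array, with normalized log2 signals of -4.00 and -4.26 in control cells, -3.77 and -3.06 with hsa-miR-205-5p, and -2.28 and -1.52 with hsa-miR-214-3p. These values did not overlap between groups, but none stood above background, so no fold change or test is given. The CLDN11 probe was also never well above background, at -3.27 and -4.23, -4.02 and -3.64, and -4.28 and -3.70 in the same order, and its groups overlapped.

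**Figure D1:**
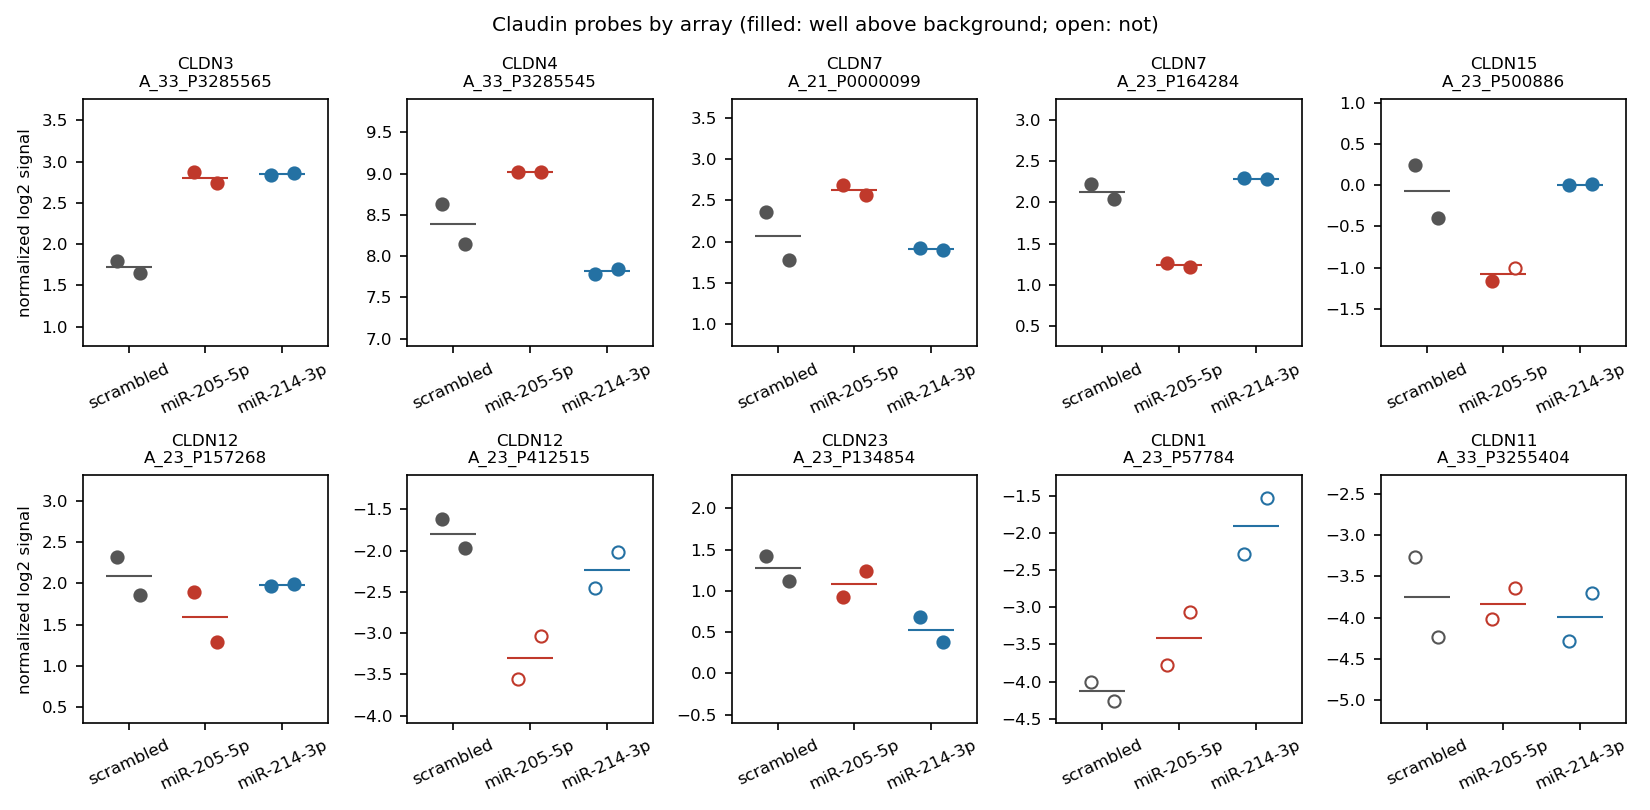
Normalized log2 signal (log2 processed signal minus the array's 75th percentile) of the 10 claudin probes on each of the 6 arrays, by group (horizontal axis); each point is an array, lines are group means, filled points are well above background and open points are not, and every panel has its own vertical range. CLDN3 sits at 2.74 to 2.88 in both precursor groups against 1.65 and 1.79 in control cells, while CLDN4 takes a separate level in each group.

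Transfection with hsa-miR-205-5p was compared with the scrambled control to ask whether forced expression of this miRNA changed claudin mRNAs. CLDN3 was higher and CLDN15 lower, each by about the 2-fold limit, and the dimmer CLDN12 probe was called lower. This made 3 of 8 claudin probes called, 1 higher and 2 lower, where 12.2% of all tested probes were called, 4.14% higher and 8.05% lower. The dimmer CLDN12 probe entered the test through the control arrays alone, so the filter favoured its lower call, which is no measured fall (under normexp background correction its log2 fold change was 0.0181). Among probes with both arrays well above background in each group, which also leaves out CLDN15, 1 of 6 claudin probes was called, CLDN3, where 11% of all such probes were called. The median log2 fold change was -0.34 over the 8 claudin probes, 0.18 over the 6 genes by their brightest probe and 0.05 over all tested probes, so its sign depends on which probes are counted. With normexp background correction no claudin probe was called against control (CLDN3 1.09 became 0.87 with hsa-miR-205-5p, 1.13 became 0.79 with hsa-miR-214-3p, and CLDN15 -1.01 became -0.24). In bulk RNA, fewer cells carrying a transcript and less of it per cell cannot be told apart.

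CLDN3, an epithelial barrier claudin, gave 1.79 and 1.65 in control cells and 2.88 and 2.74 with hsa-miR-205-5p. Both precursor arrays were above both control arrays, and the means were 2.81 ± 0.10 and 1.72 ± 0.10 (SD, n = 2 each). The log2 fold change was 1.09 (SE 0.16, 95% interval 0.69 to 1.48, 2.12-fold, limma adjusted p = 0.01359). With any 1 of the 4 precursor arrays left out it was 1.02 to 1.16 and not called. In those fits fewer probes of the whole array were called in all 3 comparisons. Such losses, here and below, were therefore not particular to claudins. With each array centred on its median instead of the 75th percentile, the median log2 fold change over all tested probes went from 0.05 to -0.34, and that of CLDN3 was 0.70 and not called (limma adjusted p = 0.06053).

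CLDN4, a barrier claudin that responds to many epithelial stimuli, was by signal well above the array's 75th percentile in every group. It measured 8.63 and 8.15 in control cells and 9.02 and 9.03 with hsa-miR-205-5p. The precursor arrays lay above both control arrays, and the control arrays were far apart from each other beside the spread of the precursor arrays. The log2 fold change of 0.63 (SE 0.21, 95% interval 0.11 to 1.15) did not pass the test (limma adjusted p = 0.08846).

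CLDN15, a pore-forming claudin, measured 0.25 and -0.40 in control cells and -1.16 and -1.01 with hsa-miR-205-5p. Both precursor arrays were below both control arrays, although 1 of the 2 precursor arrays was not well above background for this probe. It passed the filter through the control and hsa-miR-214-3p arrays, which favoured a lower call, and the fold includes the dim array. The log2 fold change was -1.01 (SE 0.25, 95% interval -1.63 to -0.39, 2.02-fold lower, limma adjusted p = 0.0444). The call was lost when any 1 array other than control replicate 2 was left out, with log2 fold changes of -1.09 to -0.69 and adjusted p up to 0.1576, and without control replicate 1 it was lost on the fold alone (-0.69, adjusted p = 0.02872).

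The 2 probes of CLDN12 differed in how well they measured. The brighter one gave 2.33 and 1.86 in control cells and 1.89 and 1.29 with hsa-miR-205-5p, values that overlapped, and its log2 fold change of -0.50 (SE 0.27, 95% interval -1.18 to 0.18) did not pass the test (limma adjusted p = 0.2367). The dimmer one gave -1.62 and -1.97 in control cells and -3.56 and -3.04 with hsa-miR-205-5p, where it was not well above background. Its call (limma adjusted p = 0.02188) therefore rests on precursor signals that were not above background. A bound set by the lowest signal well above background gave no fold above 1. The call was lost without any 1 of the 4 precursor arrays (limma adjusted p from 0.05592 to 0.08426). CLDN23, a claudin of gut epithelium, gave 1.42 and 1.12 in control cells and 0.92 and 1.24 with hsa-miR-205-5p. These overlapped, with a log2 fold change of -0.19 (SE 0.22, 95% interval -0.73 to 0.36, limma adjusted p = 0.5616).

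CLDN7, a claudin of many glandular epithelia, was the member whose probes went apart with hsa-miR-205-5p. Probe A_21_P0000099 gave 2.37 and 1.78 in control cells, 2.68 and 2.57 with hsa-miR-205-5p, and 1.92 and 1.90 with hsa-miR-214-3p. Probe A_23_P164284, matched to the same transcript, gave 2.22 and 2.04 in control cells, 1.26 and 1.22 with hsa-miR-205-5p, and 2.29 and 2.28 with hsa-miR-214-3p. The first probe was highest in the group where the second was lowest, and for both probes the hsa-miR-205-5p arrays did not overlap those of either other group. Against control, the first differed by 0.55 on the log2 scale (SE 0.23, 95% interval -0.03 to 1.14, limma adjusted p = 0.149). The second differed by -0.89 (SE 0.16, 95% interval -1.28 to -0.50, limma adjusted p = 0.02024), which passed the test but at 1.85-fold stayed under the 2-fold limit. With median scaling it was -1.28 and called lower (limma adjusted p = 0.009621).

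The disagreement between the CLDN7 probes was then put into a fit of its own, prompted by and run on these same arrays, so its p-values describe the disagreement and are no independent support for it. The difference of the 2 probes' normalized log2 signals was taken on each array for the 2680 genes with at least 2 tested probes, using the 2 brightest, and fitted with limma. For CLDN7, A_21_P0000099 minus A_23_P164284 was 0.15 and -0.27 in control cells, 1.42 and 1.35 with hsa-miR-205-5p, and -0.37 and -0.38 with hsa-miR-214-3p. Only its change between groups has a meaning, because probes differ in how strongly they bind. The change from control to hsa-miR-205-5p was 1.44 (SE 0.24, limma adjusted p = 0.02859), against 1.76 (SE 0.24, limma adjusted p = 0.01186) from hsa-miR-214-3p to hsa-miR-205-5p. Of these genes, 10.8% were called for such a change in the first comparison and 19.8% in the second, so CLDN7 was not alone. From control to hsa-miR-214-3p the change was -0.31 (SE 0.24, limma adjusted p = 0.64). Without any 1 array other than control replicate 1, the change from control to hsa-miR-205-5p was 1.24 to 1.48 and not called (limma adjusted p from 0.05598 to 0.1125), and the change from hsa-miR-214-3p was not called without any 1 precursor array (0.05047 to 0.1073). A single direction for CLDN7 with hsa-miR-205-5p is therefore not given. The same difference for CLDN12 was not called from control to hsa-miR-205-5p (1.00, SE 0.41, limma adjusted p = 0.1685).

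**Figure D2:**
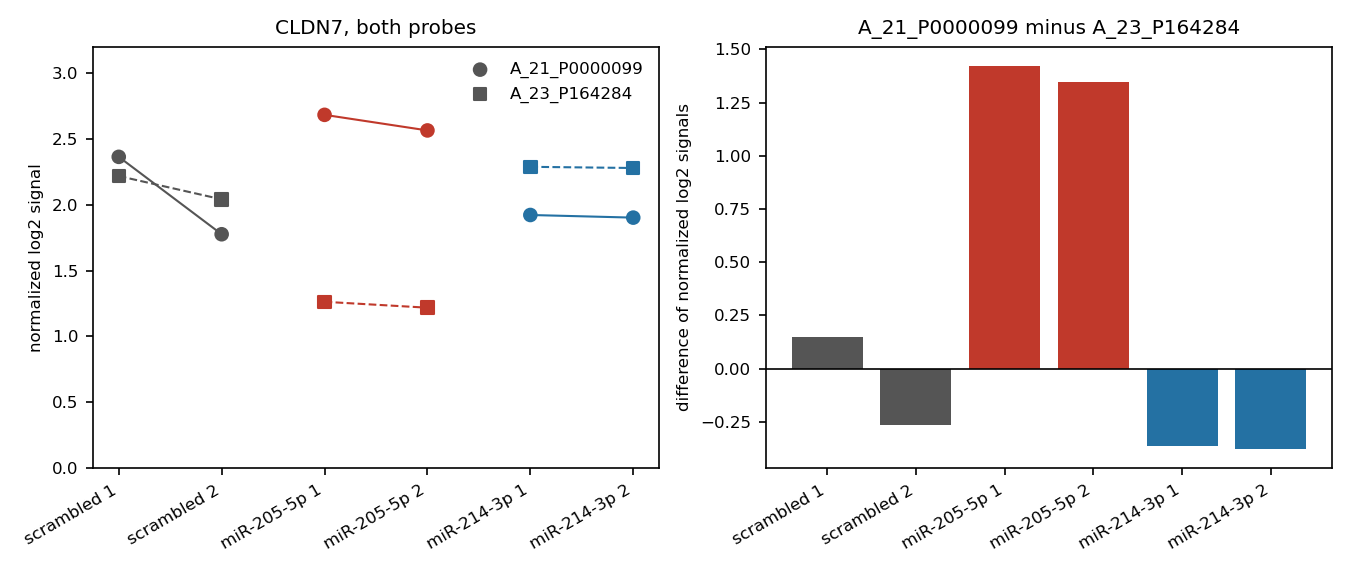
CLDN7 on each of the 6 arrays: at left the normalized log2 signal of its 2 probes (circles and squares, lines joining the arrays of a group), at right the difference of the 2 signals on each array. With hsa-miR-205-5p the difference is 1.42 and 1.35, against -0.38 to 0.15 on the other 4 arrays.

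Transfection with hsa-miR-214-3p was compared with the same control arrays to ask the matching question for this miRNA. CLDN3 was the claudin called, and it was higher. This made 1 of 8 claudin probes called, where 2.68% of all tested probes were called, 0.991% higher and 1.68% lower. Among probes with both arrays well above background in each group it was 1 of 7, where 2.5% of all such probes were called. The median log2 fold change was -0.13 over the 8 claudin probes and -0.01 over all tested probes, and 3 of the 8 had an unadjusted p under 0.05, as did 22.6% of all tested probes.

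CLDN3 gave 2.84 and 2.86 with hsa-miR-214-3p against 1.79 and 1.65 in control cells, with means of 2.85 ± 0.018 and 1.72 ± 0.10 (SD, n = 2 each). The log2 fold change was 1.13 (SE 0.16, 95% interval 0.74 to 1.53, 2.19-fold, limma adjusted p = 0.03733). Without control replicate 2 it was 1.06 and the call held, in a fit that called more probes of the whole array. Without any other 1 array it was 1.12 to 1.20 and the call was lost, as were calls over the whole array. With the arrays centred on their medians it was 0.97 and not called (limma adjusted p = 0.07147) as the median over all tested probes went from -0.01 to -0.17.

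CLDN4 and CLDN23 lay below control on both arrays but did not pass the test. CLDN4 gave 7.79 and 7.84 with hsa-miR-214-3p against 8.63 and 8.15 in control cells, a log2 fold change of -0.57 (SE 0.21, 95% interval -1.09 to -0.06, limma adjusted p = 0.1876). CLDN23 gave 0.69 and 0.38 against 1.42 and 1.12, a log2 fold change of -0.74 (SE 0.22, 95% interval -1.29 to -0.19, limma adjusted p = 0.1343). The remaining members measured in both groups had log2 fold changes between -0.16 and 0.15. CLDN15 gave 0.00 and 0.01 with hsa-miR-214-3p, between its control values of 0.25 and -0.40 (log2 fold change 0.08, SE 0.25, limma adjusted p = 0.8795). The CLDN7 probes had log2 fold changes of -0.16 (SE 0.23, limma adjusted p = 0.7301) and 0.15 (SE 0.16, limma adjusted p = 0.5983). The brighter CLDN12 probe, at 1.97 and 2.00, fell between its control values (log2 fold change -0.11, SE 0.27, limma adjusted p = 0.8412). The dimmer CLDN12 probe, at -2.45 and -2.02, was not well above background here, entered the test through the control arrays alone and was not called (limma adjusted p = 0.3951), so no fold is given.

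The precursor groups were also compared with each other, which uses no control array in the difference. CLDN4 was higher with hsa-miR-205-5p than with hsa-miR-214-3p, and CLDN15, CLDN7 by probe A_23_P164284 and the dimmer CLDN12 probe were called lower. This made 4 of 8 claudin probes called, 1 higher and 3 lower, where 19.9% of all tested probes were called, 8.37% higher and 11.6% lower. Among probes with both arrays well above background in each group, without CLDN15 and the dimmer CLDN12 probe, it was 2 of 6, 1 higher and 1 lower, where 17.8% of all such probes were called. The median log2 fold change was -0.22 over the 8 claudin probes, 0.25 over the 6 genes by their brightest probe and 0.09 over all tested probes, so here too its sign depends on the probes counted.

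CLDN4 means were 9.02 ± 0.0039 with hsa-miR-205-5p and 7.82 ± 0.039 with hsa-miR-214-3p (SD, n = 2 each), with the control arrays, at 8.63 and 8.15, between them. The log2 fold change was 1.21 (SE 0.21, 95% interval 0.69 to 1.73, 2.31-fold, limma adjusted p = 0.01255). The call was lost without any 1 precursor array (1.18 to 1.23, limma adjusted p from 0.05796 to 0.08966), and with the arrays centred on their medians, quantile normalized or taken from the authors' table the difference was 0.98, just under the 2-fold limit (limma adjusted p from 0.01103 to 0.02478). CLDN3, at 2.88 and 2.74 against 2.84 and 2.86, differed by -0.05 (SE 0.16, 95% interval -0.44 to 0.35, limma adjusted p = 0.8385).

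CLDN15 differed by -1.09 (SE 0.25, 95% interval -1.71 to -0.47, 2.13-fold lower with hsa-miR-205-5p, limma adjusted p = 0.02636), with -1.16 and -1.01 against 0.00 and 0.01 and the same dim array and filter. Without any 1 precursor array it was not called (limma adjusted p from 0.08419 to 0.1365), nor with normexp background correction, where it differed by -0.24 (limma adjusted p = 0.2557). CLDN7 by probe A_23_P164284 differed by -1.04 (SE 0.16, 2.06-fold lower, limma adjusted p = 0.009142), and the call was lost without hsa-miR-205-5p replicate 2 or either hsa-miR-214-3p array (limma adjusted p from 0.05294 to 0.08584). CLDN7 by probe A_21_P0000099 differed by 0.71 the other way (SE 0.23, limma adjusted p = 0.06737). The dimmer CLDN12 probe was called (limma adjusted p = 0.03619), but it was not well above background in either group, so no fold is given. The call was lost without any 1 precursor array (limma adjusted p from 0.05821 to 0.1918). The brighter CLDN12 probe differed by -0.39 (SE 0.27, limma adjusted p = 0.3047) and CLDN23 by 0.55 (SE 0.22, limma adjusted p = 0.1059).

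**Figure D3:**
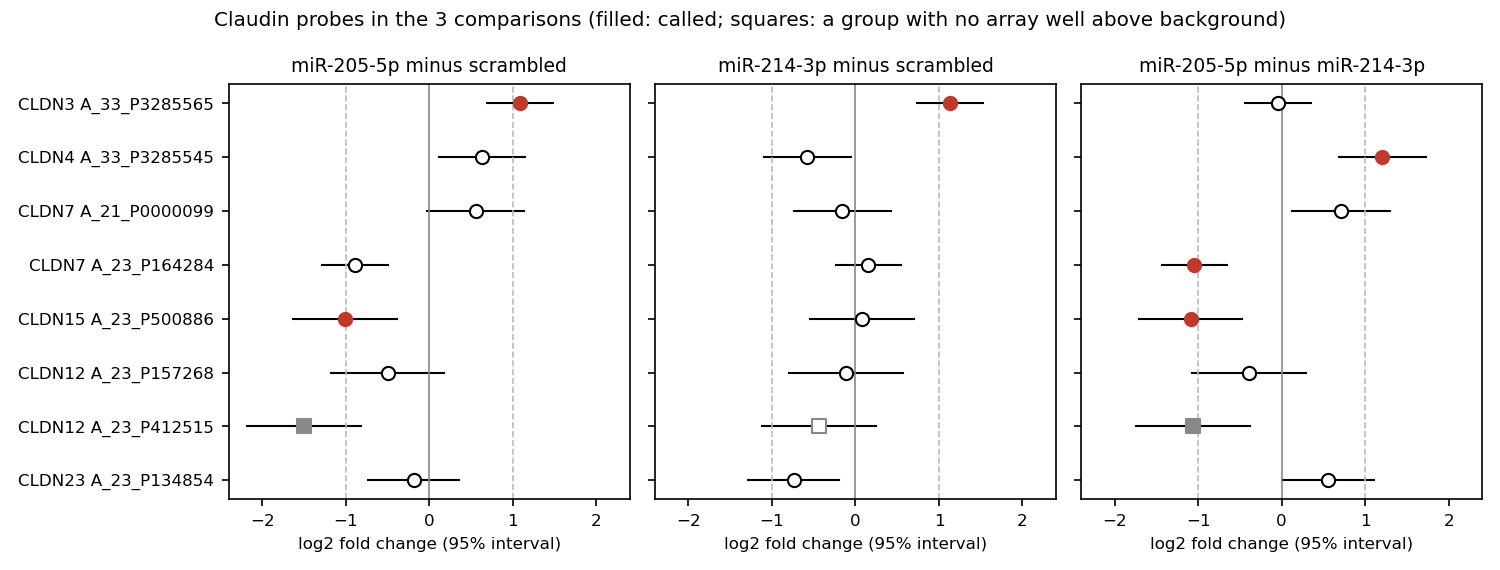
Log2 fold change (horizontal axis) with its 95% interval from limma for the 8 tested claudin probes in the 3 comparisons; dashed lines mark the 2-fold limit, filled symbols are called, and squares mark comparisons in which at least 1 group had no array well above background. CLDN3 is called in both comparisons with control and lies near 0 between the precursors, whereas CLDN4 is called between the precursors only, at 1.21.

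CLDN3 and CLDN4 are neighbours on chromosome 7, with 0 other genes between them in the RefSeq table, and their levels ran differently across the 3 groups. Their upstream sequences are shown to let that pair be compared with CLDN7, and each is the 250 bases before the gene's start on its own strand, from RefSeq on GRCh38.p14. The E-box CAGGTG, the letters bound by ZEB and SNAI repressors of epithelial genes, was searched on both strands (as CAGGTG or CACCTG) and is in capitals where found. The CLDN3 sequence is chr7:73770271-73770520 (minus strand), that of CLDN4 is chr7:73830746-73830995 (plus strand), and that of CLDN7, from the second of its 2 listed starts, is chr17:7262479-7262728 (minus strand).
CLDN3: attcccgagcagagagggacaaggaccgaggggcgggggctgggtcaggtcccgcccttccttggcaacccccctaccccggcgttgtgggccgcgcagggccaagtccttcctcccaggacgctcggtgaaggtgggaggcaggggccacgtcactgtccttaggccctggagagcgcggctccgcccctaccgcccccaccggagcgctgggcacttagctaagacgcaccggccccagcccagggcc
CLDN4: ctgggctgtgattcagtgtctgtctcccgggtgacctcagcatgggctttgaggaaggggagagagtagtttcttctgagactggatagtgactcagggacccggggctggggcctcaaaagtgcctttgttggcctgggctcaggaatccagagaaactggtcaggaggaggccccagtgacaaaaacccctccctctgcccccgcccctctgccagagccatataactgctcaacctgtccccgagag
CLDN7: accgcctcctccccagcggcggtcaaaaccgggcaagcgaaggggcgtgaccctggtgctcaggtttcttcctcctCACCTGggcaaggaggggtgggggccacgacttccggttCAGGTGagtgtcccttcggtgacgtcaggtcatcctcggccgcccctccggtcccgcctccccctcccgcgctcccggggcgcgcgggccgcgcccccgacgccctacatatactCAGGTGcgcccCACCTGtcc
The CLDN7 sequence held 4 matches and 5 counting the 50 bases after its start. The CLDN3 sequence held 0 before the start and 1 after it, and the CLDN4 window held 0. The other CLDN7 window and the windows of CLDN1, CLDN11, CLDN12 and CLDN15 held 0, and CLDN23 was not searched. Of 35116 windows of 300 bases around all listed starts, 7231 (20.59%) held at least 1 match. Binding was not measured in these samples. ZEB1 was not called in any comparison (log2 fold change -0.56 with hsa-miR-205-5p and 0.09 with hsa-miR-214-3p against control, limma adjusted p = 0.1475 and 0.8426).

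The rest of the claudin family was mostly below detection in this line. Of 16 other claudins on the array, 12 had no probe well above background on any array, CLDN9 and CLDN22 had 1 such array each, and CLDN2 and CLDN19 entered the test. CLDN2, a cation and water pore of leaky epithelia, gave 0.66 and 0.17 in control cells, 1.19 and 1.22 with hsa-miR-205-5p, and -0.15 and -0.01 with hsa-miR-214-3p. Its groups did not overlap, and like CLDN4 it stood highest with hsa-miR-205-5p and lowest with hsa-miR-214-3p. It was called between the precursors (log2 fold change 1.28, SE 0.21, limma adjusted p = 0.01176) and not against control (0.79 with adjusted p = 0.05703, and -0.49 with adjusted p = 0.2508). CLDN19 was not called and is named after its values were seen, being the only other tested one, with log2 fold changes of -0.52, -0.01 and -0.51 in the 3 comparisons (SE 0.71). None of the 5 tested relatives of claudins in the PMP22 and EMP family was called by limma in any comparison, with an unadjusted p under 0.05 for 1, 3 and 3 of them, where 39.5%, 24.2% and 48.2% of all tested genes had one and 12.8%, 3.12% and 20.5% were called.

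The partners of claudins at the junction were read from a list of 30 genes (scaffolds, other junction membrane proteins and polarity complexes), of which 21 were tested by their brightest probe. With hsa-miR-205-5p against control, 5 rose, 0 fell and 16 were not called, where 12.8% of all tested genes were called. Among genes with both arrays well above background in each group, which leaves out CRB3, 4 of 17 partners were called, all higher, where 11.7% of all such genes were called. The median log2 fold change of the 21 was 0.11, against 0.08 over all genes. Of the 21, 17 were above 0 and 4 below, where 6545 of all tested genes were above and 5429 below. These signs depend on the centring, since median scaling moved the median over all tested probes from 0.05 to -0.34. The genes that rose were the polarity protein CRB3, the junction plaque proteins CGN (cingulin) and CGNL1 (its paralog), the adhesion molecule F11R (JAM-A) and the polarity kinase PRKCZ.

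CRB3 gave -2.00 and -2.67 in control cells, where 1 of 2 arrays was well above background, and 1.34 and 1.31 with hsa-miR-205-5p (log2 fold change 3.66, SE 0.25, limma adjusted p = 0.007991). It passed the filter through the hsa-miR-205-5p arrays alone, which favoured a higher call, and its fold leans on a dim control array and on the background correction. CGN gave 1.32 and 1.22 in control cells and 3.38 and 3.60 with hsa-miR-205-5p (2.22, SE 0.17, limma adjusted p = 0.007991). For both genes the precursor arrays lay above both control arrays. F11R rose by 1.25 (SE 0.18, limma adjusted p = 0.0135) by its brighter probe, while its other probe differed by -0.13 (SE 0.39, limma adjusted p = 0.8274). PRKCZ rose by 1.10 (SE 0.21, limma adjusted p = 0.02411) and CGNL1, named after its values were seen, by 1.02 (SE 0.18, limma adjusted p = 0.01967). OCLN (occludin) and TJP1 (ZO-1), added for their central place in the junction after values were seen, were not called. OCLN was dim on both hsa-miR-205-5p arrays and its groups overlapped (limma adjusted p = 0.3609), so no fold is given. TJP1 had a log2 fold change of 1.32 (SE 0.39, limma adjusted p = 0.07134). With normexp background correction 2 partners were called, CRB3 (1.34) and CGN (1.51), while F11R (0.98), PRKCZ (0.86) and CGNL1 (0.46) were not. With median scaling 3 were called, CRB3 (3.27) and CGN (1.83) higher and ESAM lower (-1.09), and F11R (0.86), PRKCZ (0.71) and CGNL1 (0.63) again were not. Partner calls were also lost when any 1 array other than control replicate 1 was left out, most of all without hsa-miR-205-5p replicate 2. In those fits fewer probes of the whole array were called, so the loss was not particular to the partners. Of the luminal markers given above, CDH1, EPCAM and KRT19 were also called higher in this group. TFF1 was called lower (-2.22), GATA3 was not called, and ESR1, FOXA1 and PGR were not well above background. The part of these markers in the partner values was not tested.

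With hsa-miR-214-3p against control, 0 of the 21 partners were called by limma, where 3.12% of all tested genes were called, nor was any of the 17 with both arrays well above background in each group, where the share was 2.99%. Of the 21, 10 were above 0 and 11 below, with a median log2 fold change of -0.01 and a range from -0.93 to 0.86, whose lower end is CRB3, dim on both hsa-miR-214-3p arrays and on 1 of 2 control arrays. An unadjusted p under 0.05 was reached by 5 of them, near the 24.2% of all tested genes, and none was called by the methods' t-test. When control replicate 2 was left out 2 were called, as were 9.58% of all tested probes. Between the precursors, 4 partners were higher with hsa-miR-205-5p and ESAM was lower, where 20.5% of all tested genes were called. With both arrays well above background in each group it was 3 higher and 1 lower of 17, where 18.7% of all such genes were called. CRB3, dim with hsa-miR-214-3p (neither array well above background), was at least 9.98-fold higher with hsa-miR-205-5p (limma adjusted p = 0.003827). This bound holds for the scanner's background correction only, since with normexp the log2 fold change was 1.34. CRB3 passed the filter through the hsa-miR-205-5p arrays alone, which favoured a higher call. F11R differed by 2.14 (SE 0.18, limma adjusted p = 0.003827) by its brighter probe and by -0.27 (SE 0.39, limma adjusted p = 0.6133) by its other probe. CGN differed by 2.01 (SE 0.17, limma adjusted p = 0.003827) and CGNL1 by 1.03 (SE 0.18, limma adjusted p = 0.0126). ESAM, an endothelial adhesion molecule, differed by -1.12 (SE 0.17, limma adjusted p = 0.008917), with 3.53 and 3.70 against 4.64 and 4.84. Without either hsa-miR-214-3p array the calls of CGNL1 and ESAM were lost, as were calls over the whole array.

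**Figure D4:**
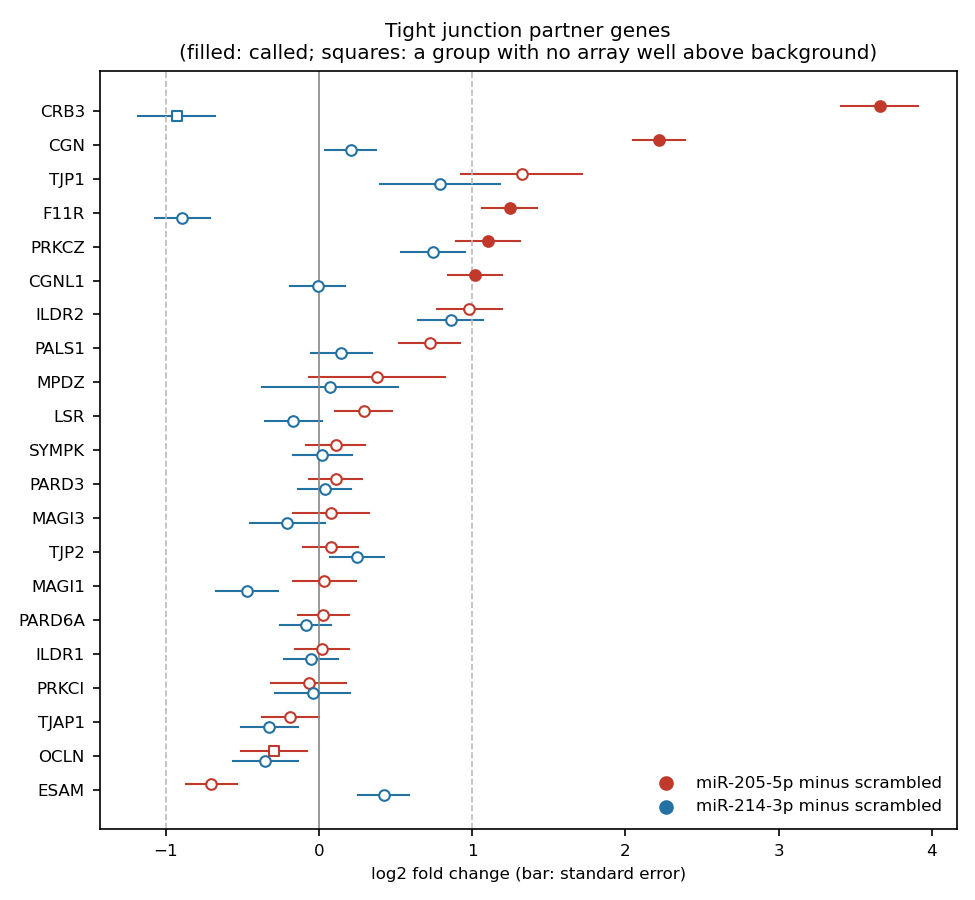
Log2 fold change (horizontal axis, bars are standard errors) of the 21 tested tight junction partner genes, each by its brightest probe, for each precursor (hsa-miR-205-5p in red, hsa-miR-214-3p in blue) against the same 2 control arrays; dashed lines mark the 2-fold limit filled symbols are called, and squares mark OCLN in red and CRB3 in blue, where the precursor group had no array well above background. In red, CGN lies at 2.22 and CRB3, dim on 1 of 2 control arrays, at 3.66 (1.51 and 1.34 with normexp background correction), and no gene is called with hsa-miR-214-3p.

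Of 12 regulators of the epithelial state, 11 were on the array and 6 were tested. Of these, 1 was called higher and 1 lower with hsa-miR-205-5p against control, 0 with hsa-miR-214-3p and 2 lower between the precursors, where 12.8%, 3.12% and 20.5% of all tested genes were called. With both arrays well above background in each group, the counts were 1 of 4, 0 of 6 and 0 of 4, since ELF3 and ZEB2 were dim on at least 1 hsa-miR-205-5p array and passed the filter through the other groups. With hsa-miR-205-5p against control, the splicing factor ESRP2 rose (2.01 and 1.64 in control cells, 3.93 and 3.90 with the precursor, log2 fold change 2.09, SE 0.19, limma adjusted p = 0.007991). The epithelial transcription factor ELF3 was called lower (0.18 and 0.63 in control cells, -1.61 and -1.65 with the precursor, where 1 of 2 arrays was well above background), with a log2 fold change of -2.04 (SE 0.22, limma adjusted p = 0.008779). With hsa-miR-214-3p against control ESRP2 differed by 1.09 (SE 0.19, limma adjusted p = 0.05071). Between the precursors, ELF3 was lower with hsa-miR-205-5p by -1.62 on the log2 scale (SE 0.22, limma adjusted p = 0.006977). ZEB2, a repressor of epithelial genes, had neither hsa-miR-205-5p array well above background by its brighter probe and was at least 1.43-fold lower there than with hsa-miR-214-3p (limma adjusted p = 0.04331). Its other probe, also dim on both hsa-miR-205-5p arrays, was not called (limma adjusted p = 0.06808).

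For each member measured on all 6 arrays, the gene with the most alike profile was sought by Pearson correlation over the 6 arrays among 2770 genes whose group means spread by at least 1 log2 unit. The 6 arrays form 3 groups and share a slide, so these values only describe profiles. CLDN3 was most like EFEMP1, an extracellular matrix protein (r = 0.995), which gave 4.94 and 4.71 in control cells, 5.92 and 5.83 with hsa-miR-205-5p, and 5.81 and 5.85 with hsa-miR-214-3p. CLDN4 was most like TEDC2, a centriole protein (r = 0.9995), with 4.78 and 4.34, 5.18 and 5.15, and 3.98 and 4.06 in the same order. CLDN7 by probe A_21_P0000099 was most like MINDY1, a deubiquitinase (r = 0.999), CLDN23 was most like SLFN13 (r = 0.994) and CLDN12 was most like APOLD1 (r = 0.949).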

How the data were processed

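Total RNA of MDA-MB-231 cells was labelled with Cy3 and hybridised to 1-colour Agilent SurePrint G3 human gene expression arrays, 1 array per sample. The authors scanned the arrays with Agilent Feature Extraction (11.0 in the submitters' notes) and deposited spot intensity values, background-subtracted and detrended but not scaled between arrays. Gene names come from each probe's RefSeq transcript through a table of assembly GRCh38.p14 (30275 probes matched); the array design names GRCh37, so gene coordinates of that table are given for printed sequences only. A deposited table of log2 values normalized by the authors (GeneSpring in their methods) has the same sorted values in every column (median 3.49). Set against the scanner files (r from 0.997 to 1.000), its direction is that of the signal, its exact centring is not given in the sources used here, and it served as an alternative.

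Control and outlier spots were left out, log2 processed signals were scaled to each array's 75th percentile, and 11 probes without a value on some array were dropped. Probes were tested with limma 3.58.1 (R 4.3.3) on all 6 arrays with 3 residual degrees of freedom and Benjamini-Hochberg adjustment over 18464 probes. A gene with several probes is its brightest tested probe. An "at least" fold sets the brighter group against, on each dim array, the higher of the probe's own signal and the lowest signal well above background. The number of arrays limits the precision. Scripts were tested on simulated data. Members, gene lists and tests were chosen with earlier results of these data known. Named genes are all member probes, from each other list the called genes with the largest changes (at most 4 per comparison), and 1 most alike gene per member. Alternatives covered background correction, scaling, the filter on dim probes, samples in the fit, a replicate block, the spread, thresholds, probes per gene, the methods' t-test and leaving out each array. Protein sequences were not used here. A listed marker is not reported here.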

Additional observations from a re-analysis of the deposited data

How the results depend on the processing

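Among alternative values of single claudin results, 422 kept their direction and side of the threshold, 79 lost a call in the same direction, 2 gained one and 11, none of them called, changed sign. The log2 fold change of CLDN3 stayed between 0.70 and 1.16 with hsa-miR-205-5p and between 0.79 and 1.20 with hsa-miR-214-3p, that of CLDN4 between the precursors from 0.98 to 1.23, and none of these changed sign.

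Counts of called claudin probes were 3, 1 and 4 (hsa-miR-205-5p against control, hsa-miR-214-3p against control, and between precursors), and those of tight junction partners 5, 0 and 5. With normexp background correction, claudin counts were 0, 0 and 1 and the first partner count was 2. In those fits 5.37%, 1.57% and 7.55% of all tested probes were called. With median scaling the second claudin count was 0 and the first partner count 3, which was also 3 in the authors' table. Without a filter on dim probes, claudin counts were 0, 0 and 0 and partner counts 2 in the first and 3 in the third comparison. Of the 50588 probes then tested, 0.945%, 0% and 3.65% were called. With probes well above background on all arrays, claudin counts were 1 in the first and 2 in the third comparison. In fits of only the 4 arrays compared, claudin counts were 0 and 0 against control and the first partner count was 2. Against control, 4.65% and 0% of all tested probes were called in these fits. The methods' t-test, at p under 0.05 and 2-fold, called 2, 1 and 3 claudin probes and 8.98%, 4.12% and 19.5% of all tested probes. After Benjamini-Hochberg it called 0 and 0 claudin probes against control and 0 partners in the first comparison. No probe of the array was then called against control. Leaving out 1 array at a time, with the lone array of a group assumed to vary like the others, gave claudin counts of 0 to 3, 0 to 1 and 0 to 4 and partner counts of 0 to 6, 0 to 2 and 3 to 5. Except where a setting tested other probes or fewer arrays, the cause was not tested.

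Median scaling moved the split of all called probes from 764 higher and 1486 lower to 276 and 2913 (hsa-miR-205-5p against control), from 183 and 311 to 66 and 365 (hsa-miR-214-3p against control) and from 1545 and 2133 to 884 and 2846 (between precursors). The median over all tested probes was then -0.34, -0.17 and -0.13, against 0.05, -0.01 and 0.09 for the same probes scaled to the 75th percentile. With 75th percentile scaling and no filter, so over more probes, it was 0.58, 0.31 and 0.36. Normexp gave 149 and 842, 45 and 244, and 484 and 910.

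Signs changed under normexp for the dimmer CLDN12 probe (0.0181 with hsa-miR-205-5p and 0.115 with hsa-miR-214-3p), CLDN7 probe A_23_P164284 (-0.0113 with hsa-miR-214-3p), CLDN15 (-0.0084 with hsa-miR-214-3p) and CLDN3 between precursors (0.0814). Under median scaling they changed for CLDN7 probe A_23_P164284 (-0.0113) and CLDN15 (-0.0873) with hsa-miR-214-3p. Leaving out 1 array gave signs of both kinds for CLDN3 between precursors (-0.1153 to 0.0236, positive without hsa-miR-205-5p replicate 2) and, with hsa-miR-214-3p, for CLDN7 probe A_21_P0000099 (-0.452 to 0.1364), the brighter CLDN12 probe (-0.3448 to 0.1221) and CLDN15 (-0.2442 to 0.4006), each with its ends set by the left-out control array.

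Replicate numbers are shared between groups, and deviations of same-numbered arrays correlated at 0.11, 0.01 and -0.05. No strong shared effect of the number was seen, but with 2 arrays per group this cannot exclude that same-numbered samples were paired. With the replicate number as a block, the claudin count with hsa-miR-214-3p against control was 0, where no probe of the array was called, and claudin counts were 2 and 3 in the other comparisons. Dim probes limit what can be said of CLDN1, CLDN11 and the dimmer CLDN12 probe.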
